A study of Mus musculus with 2 samples.

Results

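Antimicrobial and acute phase proteins of mouse colon epithelium were followed through 9 genes, chosen by symbol: Ang4, Retnlb, Lyz1, Defa24, Reg3b, Reg3g, Saa1, Saa3 and Pigr. All 9 were among the 17044 gene symbols of the deposited table, and the rule that names them uses no measured value. The 9 genes and the gene lists were, however, chosen with earlier results of these data known. Shares set beside those of all genes below are therefore descriptions. The samples were colon epithelial cells of wild-type C57BL/6 mice taken 2 weeks after irradiation, and the series title places them in work on radiation proctitis and transplanted colonoids, which are organoids grown from colon. There was 1 group with 2 single-cell libraries, and the labels give no number of animals, no age and no mark that tells grafted from host cells. Unirradiated cells were not analysed here, so no value below shows what irradiation or grafting did.

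The gut epithelium meets a dense microbial flora, and its defence rests on proteins that it secretes into the mucus or carries across itself. Ang4 is a ribonuclease with microbicidal activity made by Paneth and goblet cells, Retnlb (RELMβ) is a goblet cell product that acts on bacteria, Lyz1 is the Paneth cell lysozyme that cleaves bacterial cell wall, and Defa24 is an alpha-defensin, a pore-forming peptide of Paneth cells. Reg3b and Reg3g are C-type lectins that bind bacterial cell wall, and both are known targets of interleukin-22 acting through the transcription factor STAT3. Saa1 and Saa3 are serum amyloid A proteins, retinol-binding acute phase proteins that epithelium makes in contact with microbes, and Saa3 is also made by macrophages. Pigr is the polymeric immunoglobulin receptor, which carries dimeric IgA from the tissue to the lumen. Paneth cells belong to the small intestine and are not a regular part of mouse colon.

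The values were the authors' averages over the cells of 12 clusters, numbered 0 to 11, as unique molecular identifiers (UMIs, counts of single RNA molecules) per 10000 UMIs of a cell, written below as "per 10000". The clusters held 3082 cells, from 482 in cluster 0 to 31 in cluster 10 and 19 in cluster 11. Median depth ran from 1457 UMIs in cluster 5 and 2548 in cluster 6 up to 19552 in cluster 7. The columns carry cluster numbers alone, so the cells of both libraries were treated as 1 pool. There was therefore no replicate value and no test. Intervals given with the levels are exact Poisson 95% intervals from approximate UMI numbers and cover counting error only. They do not cover the spread between cells, animals or libraries. Since the clusters were themselves made from gene expression, the place where a gene is highest is a description and no independent evidence.

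From marker lists, cluster 0 was goblet-like, with 12 of 12 goblet markers and 5 of 6 deep crypt secretory markers highest there. Cluster 7 was proliferating-like (6 of 6 cycle markers highest), cluster 8 absorptive colonocyte-like (5 of 8), cluster 11 enteroendocrine-like (8 of 8) and cluster 5 neutrophil-like (6 of 7). Clusters 1, 2, 3, 4, 6, 9 and 10 are given by number. Clusters 5 and 10 were the leukocyte clusters, at 3.69 and 1.78 per 10000 of the leukocyte marker Ptprc, against 0.0827 or less in the other 10 clusters. The epithelial label of the samples therefore does not cover every cell.

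Of the 9 genes, 4 led a cluster, meaning that they stood at 1 or more per 10000 there and had there at least 2 times their level in any other cluster, with 0.1 per 10000 added to both. These were Ang4, Retnlb and Defa24 in cluster 0 and Saa1 in cluster 8. Over all 17044 genes 4.5% led a cluster. Of the 9, 5 reached 1 per 10000 in at least 1 cluster, against 19.2% of all genes, and 23.4% of the genes at that level led a cluster. Lyz1, Reg3b, Reg3g and Saa3 stayed below 1 per 10000 everywhere, and Pigr was above 1 in every cluster without leading any. The median log2 fold of the highest cluster over the next was 2.17 for the 9 genes and 0.24 for all genes. It was 3.11 for the 5 genes at 1 or more per 10000 and 0.40 for all genes at that level.

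**Figure D1:**
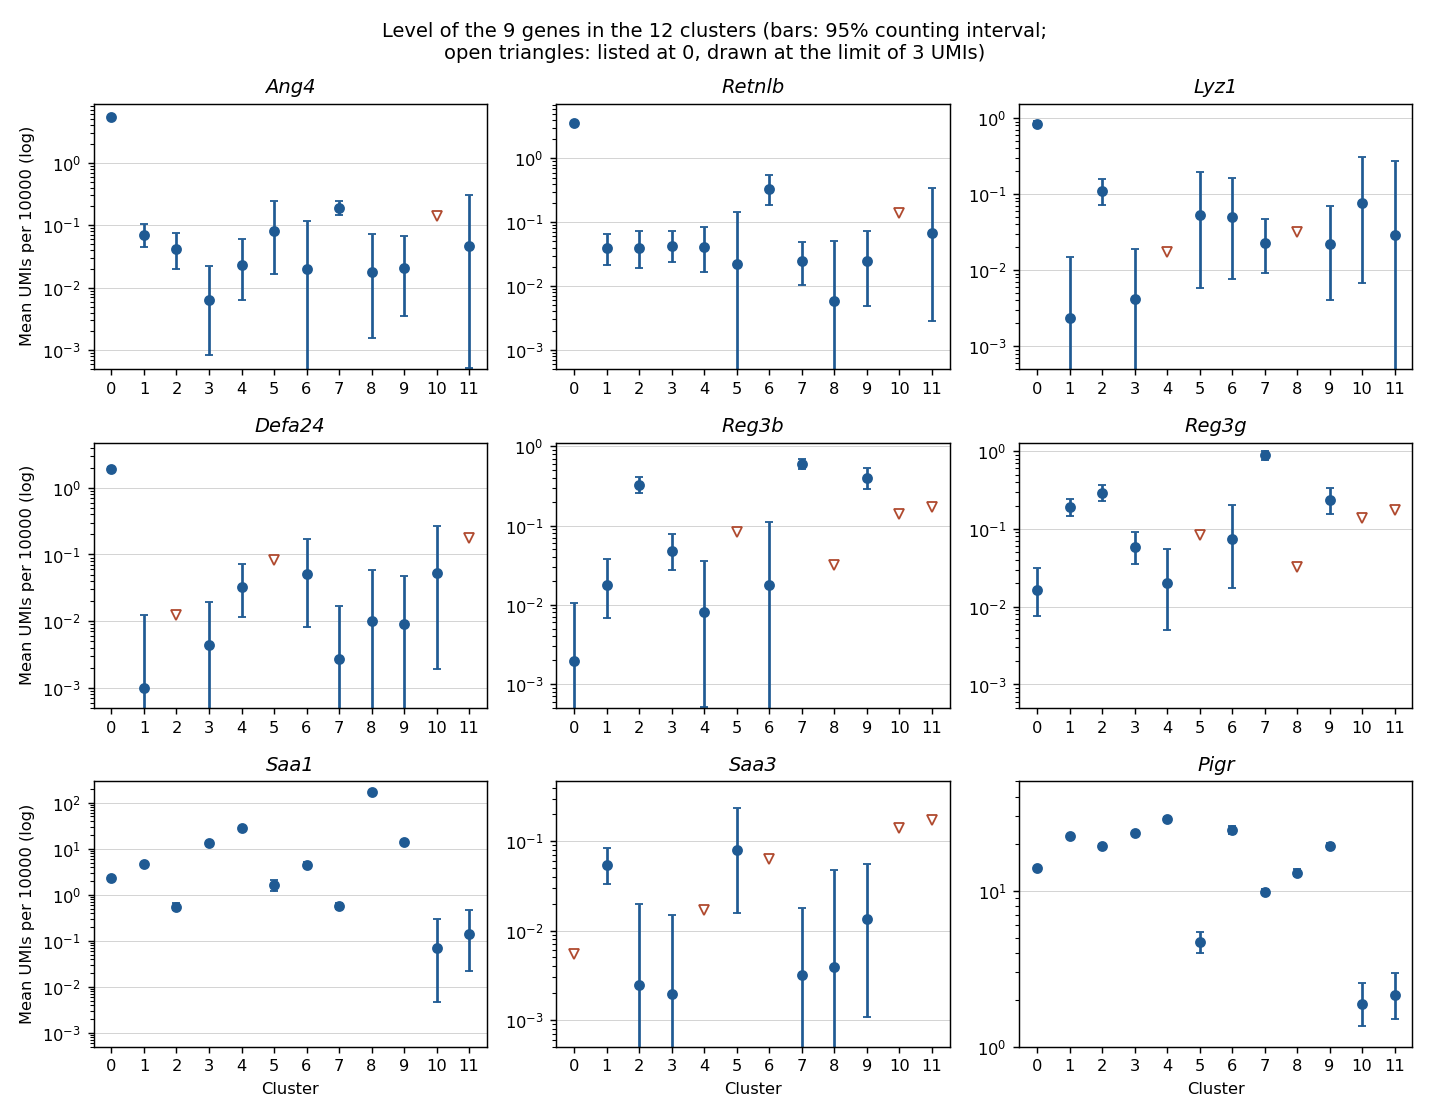
Level of each of the 9 genes in the 12 clusters, in mean UMIs per 10000 UMIs of a cell on log axes that differ between panels. Points are the authors' averages, bars are 95% counting intervals (cut off at the foot of a panel where they run lower), and open triangles mark clusters listed at 0, drawn at the limit of 3 UMIs. Ang4, Retnlb, Lyz1 and Defa24 stand out in cluster 0 and Saa1 in cluster 8. Reg3b and Reg3g are highest in cluster 7, Reg3b only 1.53 times above cluster 9. Pigr lies within 9.82 to 28.8 per 10000 in the 9 clusters outside 5, 10 and 11.

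Ang4, Retnlb, Lyz1 and Defa24, products of Paneth or goblet cells, were all highest in the goblet-like cluster 0, where 6.13% of all genes had their highest average. Ang4 averaged 5.33 per 10000 in cluster 0 (5.14 to 5.53), then 0.190 in cluster 7, 0.0817 in cluster 5, 0.0701 in cluster 1, 0.0463 in cluster 11, 0.0417 in cluster 2, 0.0233 in cluster 4, 0.0210 in cluster 9, 0.0203 in cluster 6, 0.0177 in cluster 8, 0.0064 in cluster 3 and 0 in cluster 10. Its level in cluster 0 was 28.1 times that in cluster 7 (21.7 to 37.0), and cluster 7 in turn stood 2.71 times above cluster 1 (1.67 to 4.50). From cluster 7 downward the neighbours in this order had overlapping intervals. Cluster 0 held 95% of the Ang4 level summed over all cells.

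Retnlb averaged 3.62 per 10000 in cluster 0 (3.46 to 3.79) and 0.331 in cluster 6 (0.187 to 0.541), a ratio of 10.9 (6.68 to 19.4). It stood at 0.0683 in cluster 11, 0.0431 in cluster 3, 0.0412 in cluster 4, 0.0398 in cluster 2, 0.0388 in cluster 1, 0.0244 in cluster 7, 0.0243 in cluster 9, 0.0219 in cluster 5, 0.0058 in cluster 8 and 0 in cluster 10. Retnlb thus had its second level in a cluster other than Ang4 did, and clusters 3, 4, 2 and 1 were nearly level. The intervals of clusters 6 and 11 overlapped, as did those of all neighbours further down. Its ratio between clusters 6 and 1 was 8.54 (3.87 to 19.0).

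Defa24 averaged 1.90 per 10000 in cluster 0 (1.79 to 2.02) and at most 0.0526 elsewhere, in cluster 10, where a single UMI in 1 cell made the whole value. It stood at 0.0515 in cluster 6, 0.0324 in cluster 4, 0.0101 in cluster 8, 0.0091 in cluster 9, 0.0045 in cluster 3, 0.0027 in cluster 7, 0.0010 in cluster 1, and 0 in clusters 2, 5 and 11. Of the 4 genes it was the most concentrated, with 96.7% of its summed level in cluster 0. The 8 values above 0 outside cluster 0 rested on few molecules, and the make-up of 7 of them was found to be 1 to 3 UMIs.

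Lyz1 was the least concentrated of the 4. It averaged 0.842 per 10000 in cluster 0 (0.767 to 0.923), then 0.109 in cluster 2, 0.0771 in cluster 10, 0.0527 in cluster 5, 0.0499 in cluster 6, 0.0291 in cluster 11, 0.0225 in cluster 7, 0.0223 in cluster 9, 0.0042 in cluster 3, 0.0023 in cluster 1 and 0 in clusters 4 and 8. Cluster 0 held 83.5% of the summed level and stood 7.72 times above cluster 2 (5.23 to 11.9). That next level was the work of 1 cell: 53 of its 54 UMIs lay in a cell of 13960 UMIs, and without that cell the Lyz1 level of cluster 2 would be 0.0012 per 10000. How many cells of cluster 0 carried Ang4, Retnlb, Lyz1 and Defa24 could not be worked out.

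**Figure D2:**
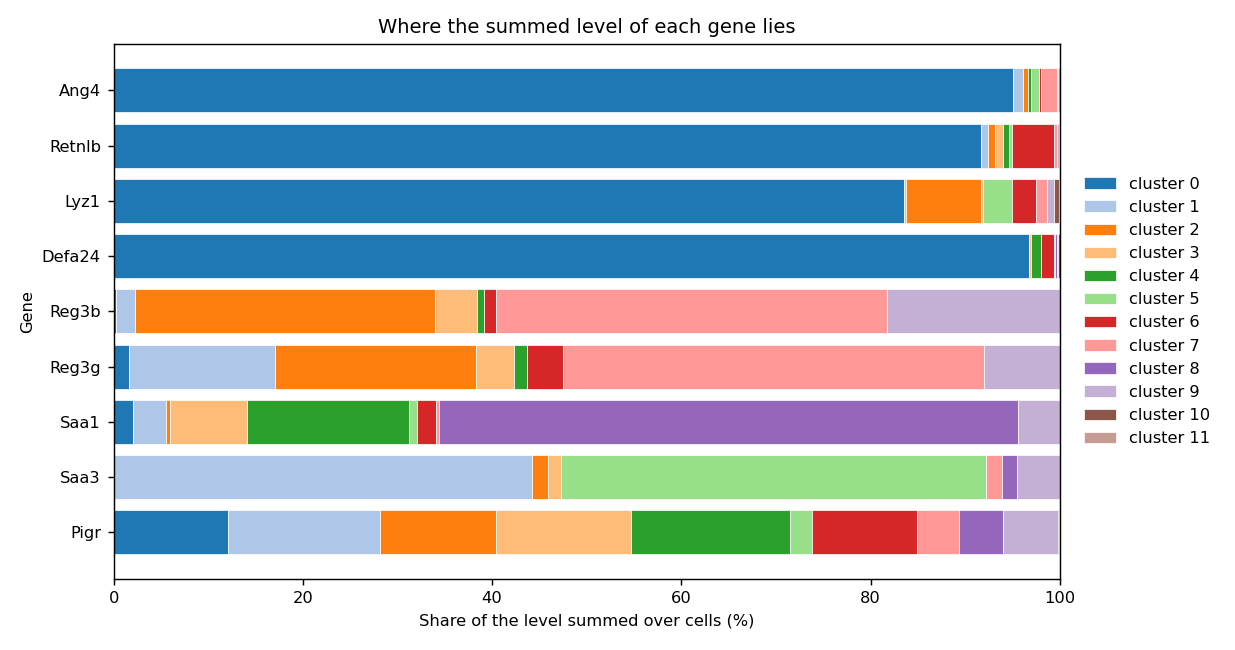
Share of each gene's level, summed over all cells, that lies in each cluster, in percent. Bars are split by cluster and add up to 100% per gene. Ang4 (95%), Defa24 (96.7%), Retnlb (91.7%) and Lyz1 (83.5%) lie mostly in cluster 0 and Saa1 (61.2%) in cluster 8, while Pigr is spread with at most 16.8% in 1 cluster.

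The traces of these genes outside cluster 0 were set beside those of the 11 goblet markers that led cluster 0 (all but Ccl6), each as a percentage of its own level in cluster 0. In cluster 6 Retnlb stood at 9.14%, Lyz1 at 5.92%, Defa24 at 2.71% and Ang4 at 0.381%, while the 11 markers ran from 0.989% to 33.1% with a median of 7.01%. In cluster 7 Ang4 stood at 3.56%, Lyz1 at 2.68%, Retnlb at 0.673% and Defa24 at 0.140%, with markers between 0.283% and 24.96% and a median of 2.99%. Retnlb in cluster 6 and Ang4 in cluster 7 therefore lay close to the middle of the goblet markers there. The averages of Ang4 in cluster 6 and Defa24 in cluster 7 were lower than those of all 11. The Ang4 value in cluster 6 was 1 UMI in 1 cell. Counting error does not let either average be placed below Zg16, the lowest marker in both clusters. Their upper limits were 0.117 per 10000 for Ang4 and 0.0169 for Defa24. As shares of the levels in cluster 0, these limits lay below the marker medians. The Lyz1 value in cluster 6 was found as 1 UMI in 1 cell of 799 UMIs, whose total was not otherwise identified. Of the 14 Lyz1 UMIs in cluster 7, 11 lay in 1 cell of 41812 UMIs, and the Defa24 value there was 1 UMI. The 12 goblet markers summed to 1012 per 10000 in cluster 0, 57.2 in cluster 6, 37.6 in cluster 7 and 6.64 in cluster 8. None was at 0 in clusters 6 and 7, and their part in the values of Retnlb and Ang4 there was not tested. RNA that was free in the cell suspension, which can give UMIs in cells that do not express a gene, was not tested either.

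**Figure D3:**
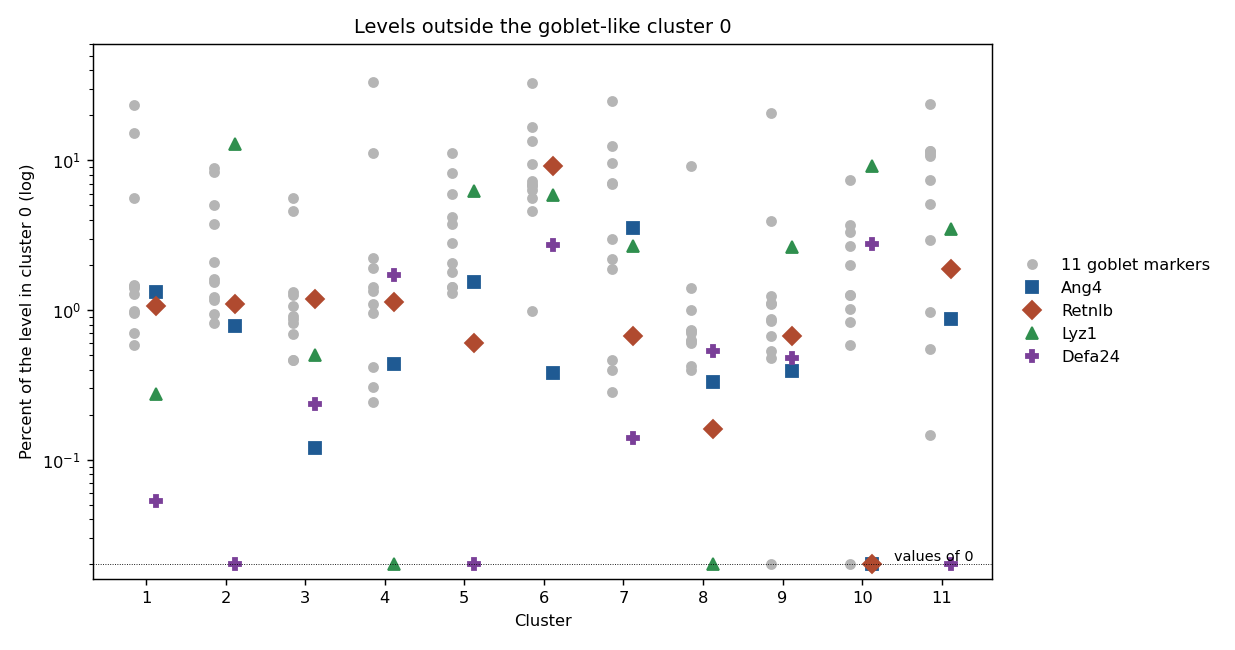
Levels outside cluster 0 as a percentage of the level of the same gene in cluster 0, on a log axis, for Ang4, Retnlb, Lyz1, Defa24 (coloured) and 11 goblet markers (grey), with values of 0 drawn on the dotted line. Retnlb reaches 9.14% in cluster 6 and Ang4 3.56% in cluster 7, and Lyz1 reaches 12.9% in cluster 2, where 1 cell carries it.

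Of a Paneth cell marker list of 9 genes 7 were measured, counting Defa30 under the symbol Gm15284. They include Ang4, Lyz1 and Defa24, so 4 are genes not described above, and these 4 were also highest in cluster 0, where 6.13% of all genes were. Of the 4 Gm15284 led cluster 0, at a level above that of Defa24, and the other 3 stayed below 1 per 10000. Mmp7, the protease that activates mouse alpha-defensins, stood at 0.283 per 10000 in cluster 0 against 0.0615 in cluster 7, and Itln1, a lectin for microbial sugars, at 0.212 against 0.0325 in cluster 1. RefSeq lists 40 mouse Defa genes, of which 6 were in the table, and these 6 were all highest in cluster 0 with a summed level of 4.57 per 10000. Gm15284 (Defa30) stood at 2.296, Defa24 at 1.90, Defa17 at 0.218, Gm14850 (Defa37) at 0.0857, Defa3 at 0.0498 and Gm6696 (Defa28) at 0.0213.

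The defensin family has many near-identical copies, so reads of 1 gene can be split between several or dropped. Of all stretches of 50 bases in the GENCODE transcripts of Defa24, 28.1% also occur in another gene, mostly Defa30 (26.5%), and for Defa17 the share was 92.0%. The level of a single defensin is therefore uncertain, and the family is better read as a sum. For Lyz1 16.1% of the stretches are shared with its neighbour Lyz2, for Ang4 4.70% mostly with Ang5, and for Retnlb, Reg3b and Reg3g none are shared.

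On GRCm38 (mm10), the build in the submitters' processing notes, and by GENCODE gene models, these 4 genes lie apart. Ang4 is at chr14:51763878-51773590 on the minus strand, Retnlb at chr16:48816856-48818892 on the plus strand, Lyz1 at chr10:117287797-117292868 on the minus strand and Defa24 at chr8:21734494-21735471 on the plus strand. Lyz2, the lysozyme of macrophages, lies 5.48 kb from Lyz1 and had another pattern, with 55.2 per 10000 in cluster 10, 13.6 in cluster 5 and at most 0.686 elsewhere, in cluster 3. The relatives of Retnlb on chromosome 16 also differed from it: Retnla was highest in cluster 10 at 12.8 per 10000, and Retnlg, a neutrophil gene, in cluster 5 at 31.4. The 3 resistin-like genes, which lie within 53.7 kb of Retnlb, were thus each highest in a different cluster.

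Reg3b and Reg3g both had their highest level in the proliferating-like cluster 7 and were at 0 in clusters 5, 8, 10 and 11. Between these the order of clusters was not the same for both, as Reg3g was next highest in cluster 2 and Reg3b in cluster 9. Over all genes 11.5% were highest in cluster 7. Reg3g averaged 0.879 per 10000 in cluster 7 (0.779 to 0.990), 0.294 in cluster 2, 0.234 in cluster 9, 0.190 in cluster 1, 0.0735 in cluster 6, 0.0583 in cluster 3, 0.0203 in cluster 4 and 0.0166 in cluster 0. Its level in cluster 7 stood 2.996 times above cluster 2 (2.305 to 3.94) and 3.76 times above cluster 9 (2.54 to 5.77). The intervals of clusters 2 and 9 overlapped, as did those of clusters 9 and 1.

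Reg3b averaged 0.606 per 10000 in cluster 7 (0.523 to 0.699), 0.395 in cluster 9, 0.326 in cluster 2, 0.0482 in cluster 3, 0.0178 in cluster 1, 0.0178 in cluster 6, 0.0081 in cluster 4 and 0.0020 in cluster 0. Its ratio of cluster 7 to cluster 9 was 1.53 (1.11 to 2.16). The value in cluster 2 came from 1 cell, which held 252 UMIs of Reg3b among 21940, or 1.15% of its RNA. Without that cell Reg3b would be at 0 in cluster 2, and the next level below clusters 7 and 9 would be that of cluster 3. Reg3g was at 0.294 in the same cluster, and its make-up there could not be worked out.

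Several further low values of the lectins were also carried by 1 cell. In cluster 3 a cell of 27085 UMIs held 42 of the 43 UMIs of Reg3b and 45 of the 49 of Reg3g, so both lectins were high together in it. In cluster 4 all 16 UMIs of Reg3g lay in a cell of 24303 UMIs, and in cluster 1 a cell of 18420 UMIs held 11 of 13 UMIs of Reg3b. In these averages and in that of Reg3b in cluster 2, most UMIs lay in 1 cell, and the counting intervals are too narrow for such values. In cluster 7 and cluster 9 the number of cells behind the averages could not be worked out.

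**Figure D4:**
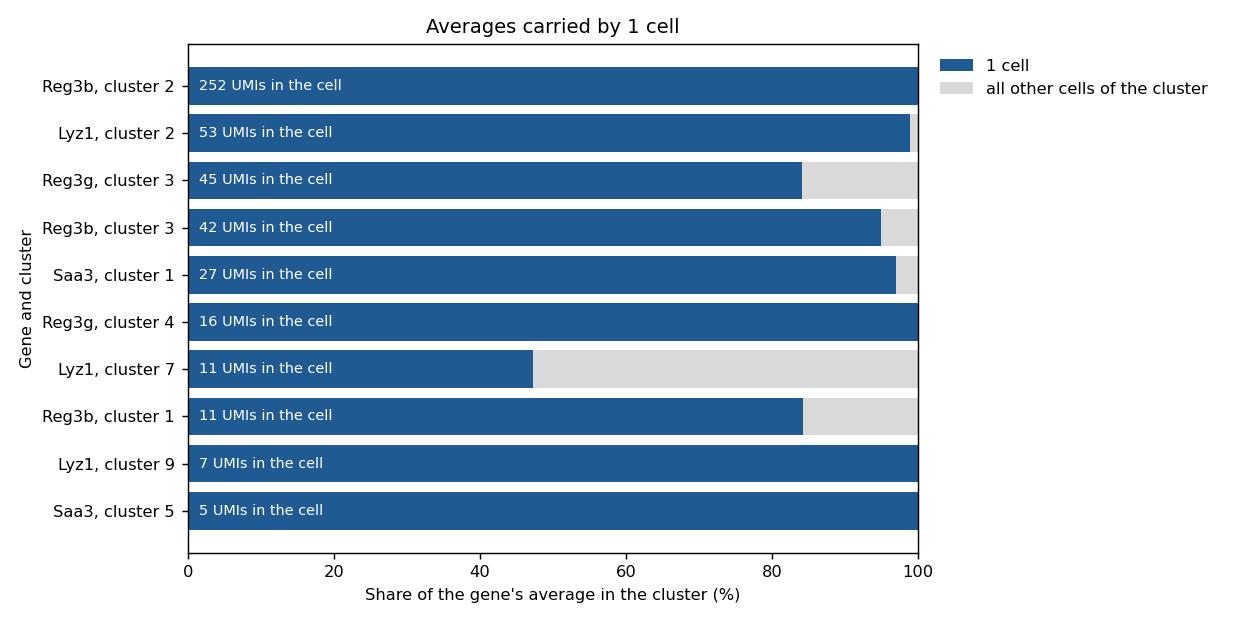
Share of a gene's average in a cluster that comes from 1 cell, in percent (blue), and from all other cells of that cluster (grey), for the 10 averages in which a cell with 5 or more UMIs was found. The cell holds all of the Reg3b average in cluster 2 (252 UMIs), 98.9% of Lyz1 in cluster 2 and 97.0% of Saa3 in cluster 1.

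Reg3b and Reg3g lie on chromosome 6, Reg3b at chr6:78370657-78373466 on the plus strand and Reg3g at chr6:78466269-78468872 on the minus strand, 92.8 kb apart. Their relatives Reg3a, Reg3d, Reg1 and Reg2 lie between them and were not analysed here. Over the 12 clusters the log2 levels of the pair had Pearson's r = 0.91 and Spearman's rho = 0.97, as a description of averages that share their cells. The promoters, from 250 bases before to 50 after the gene start on the gene's own strand (RefSeq, GRCm38.p6), are shown because the pair had their highest level in the same cluster. Capitals mark a STAT motif (TTCNNNGAA) and the TATA box (TATAAA), searched on both strands, which do not overlap here. The Reg3b window is chr6:78370635-78370934 and the Reg3g window chr6:78468825-78469124.
Reg3b: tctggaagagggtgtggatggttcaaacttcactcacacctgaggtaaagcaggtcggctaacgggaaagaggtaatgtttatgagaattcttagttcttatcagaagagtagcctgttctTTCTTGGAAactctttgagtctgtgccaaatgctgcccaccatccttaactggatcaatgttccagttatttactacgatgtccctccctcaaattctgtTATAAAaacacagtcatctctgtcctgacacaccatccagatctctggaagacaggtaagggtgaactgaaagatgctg
Reg3g: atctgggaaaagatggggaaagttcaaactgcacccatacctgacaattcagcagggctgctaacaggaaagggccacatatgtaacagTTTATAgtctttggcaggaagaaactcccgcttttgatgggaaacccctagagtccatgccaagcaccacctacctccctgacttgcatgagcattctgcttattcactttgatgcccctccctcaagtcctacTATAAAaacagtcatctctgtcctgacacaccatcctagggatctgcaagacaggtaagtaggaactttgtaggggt

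The TATA box starts 29 bases before the RefSeq gene start in Reg3b and 27 before it in Reg3g. Reg3g has another on the opposite strand 161 bases before the start. The STAT motif is in the Reg3b window, 129 bases before the RefSeq start, and these letters are not in the Reg3g window. The GENCODE model of Reg3b given above begins further upstream, within the window, so by that model both Reg3b motifs lie inside the gene. Aligned over 300 bases, the 2 windows had 214 identical bases (71.3%), where the pairs Reg3b with Saa1 and Ang4 with Lyz1 had 60.3% and 61.0%. Of 32851 RefSeq promoter windows of this length, 8.30% hold the STAT motif and 13.6% the TATA box. The STAT motif is also in the windows of Ang4, 192 bases before the start, and of Pigr, within the 50 bases after it. A match is a match of letters and does not show binding.

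Saa1 had its highest level in the absorptive colonocyte-like cluster 8, where 8.47% of all genes were highest. It averaged 168 per 10000 in cluster 8 (166 to 171), 28.6 in cluster 4, 14.2 in cluster 9, 13.0 in cluster 3, 4.76 in cluster 1, 4.50 in cluster 6, 2.33 in cluster 0, 1.60 in cluster 5, 0.565 in cluster 7, 0.547 in cluster 2, 0.140 in cluster 11 and 0.0687 in cluster 10. Its level in cluster 8 was 5.88 times that in cluster 4 (5.69 to 6.07), 11.9 times that in cluster 9 (11.3 to 12.5) and 298 times that in cluster 7 (257 to 347). Cluster 9 and cluster 3 differed little, at a ratio of 1.09 (1.03 to 1.15), and the intervals of clusters 1 and 6 and of clusters 7 and 2 overlapped. Cluster 8 held 61.2% of the Saa1 level summed over cells and cluster 4 held 17.1%. The 8 absorptive colonocyte markers summed to 266 per 10000 in cluster 8 and 238 in cluster 9, while Saa1 was far lower in cluster 9. Most of the sum in cluster 9 was Guca2a, at 150 against 78.0 in cluster 8, and Car1, at 60.4 against 74.4. Some other markers were also far lower in cluster 9 than in cluster 8. These were Car4 (6.82 against 38.1), Aqp8 (4.45 against 23.3) and Slc26a3 (4.33 against 20.7).

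Saa3 was close to the limit of detection in every cluster. It averaged 0.0802 per 10000 in the neutrophil-like cluster 5, where 7.76% of all genes were highest, 0.0544 in cluster 1, 0.0133 in cluster 9, 0.0039 in cluster 8, 0.0032 in cluster 7, 0.0024 in cluster 2, 0.0020 in cluster 3 and 0 in clusters 0, 4, 6, 10 and 11. In cluster 5 the value was 5 UMIs in 1 cell of 2274 UMIs. In cluster 1 a cell of 12859 UMIs held 27 of 28 UMIs, and without it the level would be 0.0016. The other 5 values above 0 came from 1 to 3 UMIs each.

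The cell of cluster 1 with the 27 Saa3 UMIs was also the only cell of that cluster with UMIs of Serpinb2 (13), Slc11a1 (4), Ms4a6d (3) and Hcls1 (2), genes that were picked out after their values were seen. Slc11a1, Ms4a6d and Hcls1 are genes of myeloid or other blood cells, and their highest levels in the table were 2.25 per 10000 in cluster 5, 2.98 in cluster 10 and 3.87 in cluster 10. In cluster 2 the cell with the 53 Lyz1 UMIs was in the same way the only one with UMIs of Gp2 (117) and Spib (31), known as genes of M cells, the epithelial cells over lymphoid follicles. Spib was higher in cluster 6, at 0.214 per 10000, than in cluster 2, at 0.0631. These genes were also picked out after their values were seen. Cells that have the same UMI total cannot be told apart by this arithmetic.

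Saa1 and Saa3 lie 24.8 kb apart on chromosome 7, Saa1 at chr7:46740497-46742980 and Saa3 at chr7:46711998-46715700, both on the minus strand. Over the 12 clusters their log2 levels had Pearson's r = 0.01 and Spearman's rho = 0.27. Saa2, 8.81 kb from Saa1, was highest in the same cluster 8, at 0.151 per 10000. Of the 50-base stretches of Saa1 transcripts 31.1% also occur in Saa2, so reads of the pair may not all be told apart. The promoters of the neighbours Saa1 and Saa3 (RefSeq, GRCm38.p6, gene strand) are shown because the genes had unlike patterns. Capitals mark the C/EBP motif (TTGCNNAA, both strands). The Saa1 window is chr7:46742931-46743230 and the Saa3 window chr7:46715627-46715926.
Saa1: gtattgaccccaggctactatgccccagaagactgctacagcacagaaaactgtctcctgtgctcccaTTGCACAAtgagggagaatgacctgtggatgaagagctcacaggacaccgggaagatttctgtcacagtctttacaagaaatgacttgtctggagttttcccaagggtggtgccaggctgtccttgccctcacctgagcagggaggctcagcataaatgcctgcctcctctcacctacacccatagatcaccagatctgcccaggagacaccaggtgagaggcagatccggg
Saa3: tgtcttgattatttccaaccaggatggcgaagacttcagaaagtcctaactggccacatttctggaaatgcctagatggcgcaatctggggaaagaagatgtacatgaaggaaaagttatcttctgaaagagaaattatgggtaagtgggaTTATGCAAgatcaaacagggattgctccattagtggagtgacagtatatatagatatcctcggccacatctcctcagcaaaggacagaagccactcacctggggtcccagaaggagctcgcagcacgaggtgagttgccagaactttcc

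The C/EBP motif lies 182 bases before the RefSeq start in Saa1 and 99 before it in Saa3, and it is held by 10.8% of all windows. The windows of Saa1 and Saa3 had 192 identical bases of 300 (64.0%), and those of Saa1 and Saa2 287 (95.7%). Promoter entries were at hand for 7 of the 9 genes.

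Pigr was the broadest of the 9. Its highest level lay in cluster 4, where 7.01% of all genes were highest. It averaged 28.8 per 10000 in cluster 4 (28.0 to 29.6), 24.6 in cluster 6, 23.3 in cluster 3, 22.3 in cluster 1, 19.3 in cluster 2, 19.3 in cluster 9, 13.9 in cluster 0, 13.0 in cluster 8, 9.82 in cluster 7, 4.67 in cluster 5, 2.15 in cluster 11 and 1.89 in cluster 10. Its level in cluster 4 stood 1.17 times above cluster 6 (1.10 to 1.25) and 2.93 times above cluster 7 (2.80 to 3.07). Clusters 6 and 3 differed by a ratio of 1.06 (0.991 to 1.12) and clusters 2 and 9 by 1.0002 (0.951 to 1.052), both within counting error. With mitochondrially encoded and ribosomal protein genes taken out of the totals, cluster 6 was the highest, at 33.3 per 10000. The gene is at chr1:130826684-130852249 on the plus strand.

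Pigr was lowest outside the epithelial clusters and in the enteroendocrine-like cluster. Clusters 5 and 10 stood at 24.0% and 9.71% of the mean over the cells of the other 10 clusters. The epithelial gene Epcam stood there at 14.9% and 11.3%, the keratin Krt8 at 15.1% and 8.97%, and Saa1 at 8.26% and 0.355%. Pigr thus stood above these 3 in cluster 5 and between Krt8 and Epcam in cluster 10, and the part of epithelial RNA in its values there was not tested. In cluster 11 Epcam was 14.9 per 10000 while Pigr was 2.15.

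The partners of Pigr in IgA transport had other places. Of a list of 17 genes 14 were measured, 5 led a cluster (4.5% of all genes did) and 7 were highest in cluster 6, where 14.6% of all genes were. These included Igkc at 13.8 per 10000, Igha at 9.41 and Jchain, the joining chain that Pigr binds, at 3.16 in cluster 6, while their next levels were 0.353 (Igkc, cluster 4), 0.371 (Igha, cluster 10) and 0.0334 per 10000 (Jchain, cluster 9). These 3 are plasma cell genes, so the cluster with the second level of Pigr also held immunoglobulin RNA, whose part in the Pigr value was not tested. Irf1, an interferon response factor, was highest in cluster 5 at 3.74.

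The wider list of secreted antimicrobial proteins held 48 genes, of which 34 were measured and 16 led a cluster, 13 of them outside the 9, where 4.5% of all genes led one. Of the 34, 11 were highest in cluster 0 and 5 in cluster 5, where 6.13% and 7.76% of all genes were highest. Those of cluster 0 include Ang4, Retnlb, Lyz1 and Defa24, already described, and the goblet markers Zg16 and Ccl6 by which it was named. Those of cluster 5 include S100a8, S100a9 and Retnlg, by which it was called neutrophil-like. These shares are therefore no independent sign. In cluster 0 the mucus lectin Zg16 stood at 158 per 10000 against 2.24 in cluster 5. In cluster 5 the calprotectin subunits S100a9 and S100a8 stood at 442 and 427, and the protease inhibitor Slpi at 57.3. Lypd8, which binds flagella, was highest in cluster 4 at 485 and reached 369 in cluster 8. These are the 2 clusters where Saa1 was highest, in the other order. Lypd8 also stood at 223 in cluster 1, where Saa1 was 4.76, and at 168 in cluster 3, where Saa1 was 13.0.

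Camp, the cathelicidin of neutrophil granules and a leading gene of that list, was highest in cluster 3 at 2.35 per 10000 against 0.0467 in cluster 5. The granule gene Ngp, no member of the list, stood at 2.81 in cluster 3, and its value there was 483 UMIs in 1 cell of 5073. The same cell held 119 UMIs of Lcn2 and 83 of Ltf, each with 3 UMIs in other cells of cluster 3, and all 16 of Chil3, so 1 cell carried these averages. The make-up of Camp could not be worked out. Camp, Ngp, Ltf and Chil3 were picked out after their values were seen.

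Of 25 acute phase genes 13 were measured and 3 led a cluster, of which Saa1 was 1, against 4.5% of all genes. The other leading genes were Hp (haptoglobin) at 14.7 and Lcn2 (lipocalin-2) at 6.65 per 10000, both in the neutrophil-like cluster 5. Among the list's further genes Il1rn stood at 21.1 in cluster 5 and 13.3 in cluster 10, Tfrc at 1.14 in cluster 9, and C3 at 0.623 in cluster 5. No other gene of this list led cluster 8, and Saa2 was the only other one highest there.

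The pathways known to act on these genes were read from lists of their receptors and factors, which also hold further genes such as Fut2 and Clca1. Of 22 genes of interleukin-22 and STAT3 signalling 20 were measured and 12 were highest in cluster 5, where 7.76% of all genes were. Of the 20, 10 reached 1 per 10000 and 4 led a cluster, where 23.4% of all genes at that level and 4.5% of all genes led one. The receptor chain Il22ra1 was at most 0.0465 per 10000, in cluster 1, and Stat3 was highest in cluster 6 at 1.14. The kinase Pim1 led cluster 5 at 17.3 against 3.12 in cluster 10, and Fut2, a fucosyltransferase, led cluster 0 at 1.57 against 0.600 in cluster 4. Of 26 genes of Toll-like receptor and NF-kB signalling 25 were measured and 14 were highest in cluster 5. Of the 25, 8 reached 1 per 10000 and 5 led a cluster, against the same 23.4% and 4.5% of all genes. All 5 led cluster 5, among them Nfkbia at 73.8, Cd14 at 56.8 and Nfkbiz at 10.3.

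For interleukin-4 and interleukin-13 signalling, which acts on Retnlb, 12 of 16 genes were measured, 3 reached 1 per 10000 and 2 led a cluster, where 4.5% of all genes led one. These were Clca1 in cluster 0 at 27.5 per 10000 and the receptor chain Il2rg in cluster 10 at 1.42. Clca1 is no receptor or factor of the pathway but a goblet marker by which cluster 0 was named. Of 17 regulators of secretory fate 16 were measured and 11 were highest in cluster 0, the cluster of Ang4, Retnlb, Lyz1 and Defa24, against 6.13% of all genes. Spdef and Atoh1 are also among the goblet markers by which cluster 0 was named. There Spdef stood at 2.58, Foxa3 at 2.46, Ern2 at 2.38 and Atoh1 at 2.37, the 4 that led it. Xbp1 stood at 3.87 there against 2.299 in cluster 11 and did not lead.

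The genes most like each of the 9, by Pearson's r of log2 levels over the 12 clusters among the 3276 genes at 1 or more per 10000, are given as a description. They were Nov (r = 0.98), Slc12a8 and Gm15284 for Ang4, Meg3 (0.98), Clca1 and Gm1123 for Retnlb, Cma1 (0.92), Gm1123 and Defa24 for Lyz1, and Gm1123 (0.99), Meg3 and Gm15284 for Defa24. All of these were highest in cluster 0, and so is the high point of each gene they resemble. Among Ang4, Retnlb, Lyz1 and Defa24 r ran from 0.88 to 0.94, while Spearman's rho ran from -0.32 to 0.29. For Reg3b they included Mrpl4 (0.83) and Dctpp1, and for Reg3g they were Gsta3 (0.91), Timm50 and Mrpl4. For Saa1 they were Erbb2ip (0.97), Myh14 and Ipmk, with rho between 0.96 and 0.97, so the order of clusters was nearly the same. For Saa3 they were 2310001H17Rik (0.80), Il1f9 and Stfa1, and for Pigr Gne (0.97), Paqr4 and Mal2.

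In all, the 9 genes had 108 averages in the 12 clusters, of which 20 were listed at 0. The limit that a count of 0 allows, 3 UMIs, ran from 0.0055 per 10000 for Saa3 in cluster 0 to 0.174 in cluster 11. Of the 69 averages above 0 that were low enough to be taken apart, 41 were resolved. Of these, 21 came from 1 cell, 15 of them from 1 UMI, and 10 held a cell with 5 or more UMIs.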

How the data were processed

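The samples were 2 single-cell libraries of irradiated mouse colon epithelium, in 1 group. The submitters' processing notes name Cell Ranger 3.1.0, Seurat 2.3 and mm10. The settings for cell filters, doublets, annotation and clustering are those of the authors and not given in the sources used here. What the authors deposited was 1 table of 17044 gene symbols by 12 clusters, whose values, mean UMIs per 10000 UMIs of a cell on a linear scale, sum to 10000 in each column. That unit was read from the values. Cell barcodes were not analysed here, and the averages do not show the spread among cells.

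The 9 genes and all gene lists were chosen with earlier results of these data known. The genes named besides them were the 3 most similar to each and at most 6 of each list, except that Reg3 and Saa neighbours, relatives of the defensins, lysozymes and Retnlb, Mmp7, Itln1, Il22ra1, Stat3, Foxa3, Ern2, Atoh1, Krt8 and the genes so described in the text were chosen after their values were seen. For Reg3b 1 of the 3 similar genes is not reported here. Whole values of 10000 divided by an average (relative tolerance 1e-12) gave each cluster's number of cells, which divided at least 97.2% of them. Totals of single cells were kept if 2 or more genes gave them (2270 of 3082 cells, 73.7%, lowest 509, median 12321). Averages of up to about 400 UMIs were split into whole UMIs of at most 6 cells (tolerance 1e-14 for sums). A make-up found this way can be wrong where a cell's total was not among those kept. Approximate UMI numbers are the average times the number of cells times the harmonic mean total. For folds 0.1 per 10000 was added to both levels, so folds of low genes are understated. No p-value was computed, because no replicate value exists. The steps were tested on simulated data, in which some of the make-ups found were wrong and a rise equal to the fold threshold was not called, so each make-up is a best solution and not a count read from cells. Alternatives were other pseudocounts, thresholds, cluster sets and totals, and the removal of single cells, which was chosen after seeing the data. Gene positions came from GENCODE M21 and promoters from RefSeq (GRCm38.p6), with motifs searched on both strands. Software was Python 3.11.15, numpy 2.4.6, scipy 1.17.1, pandas 2.3.3 and Biopython 1.88.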

Additional observations from a re-analysis of the deposited data

How the results depend on the processing

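The count of 4 genes that led a cluster was 4 with a pseudocount of 1 or 0.01 per 10000, with a fold threshold of 4, with epithelial clusters alone, without the 2 shallowest clusters and without single cells of 5 or more UMIs, and it was 6 with no filter on low values. The count highest in cluster 0 was 4 in every alternative run. The median log2 fold of the 9 genes over the next cluster, 2.17, was 0.73 with a pseudocount of 1 per 10000 and 2.82 over the mean of the other clusters. Their median level in the highest cluster, 1.90 per 10000, was 2.36 with mitochondrially encoded and ribosomal protein genes out of the total and 2.26 with the 10 highest genes out of it. The highest cluster of Pigr became cluster 6 with mitochondrially encoded and ribosomal protein genes out of the total. That of Saa3 became cluster 1 with epithelial clusters alone and cluster 9 (0.0133 per 10000) without single cells. Levels per library were not run, since no column belongs to 1 library. No paired analysis was possible because there is 1 group and the columns carry no library. With 31 and 19 cells in clusters 10 and 11 and shallow cells in clusters 5 and 6, levels under about 0.2 per 10000 rest there on a few UMIs.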
